A study of Danio rerio with 4 samples.

Results

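The genes described here encode molecular chaperones, their helpers and their regulators, as measured in RNA from anti-FLAG precipitates of the DEAD-box helicase Ddx3xb made from young zebrafish embryos. They were taken by name: a gene belongs if its Ensembl symbol begins like that of a heat shock protein (hsp), a J-domain protein (dnaj), a subunit of the chaperonin CCT (cct2 to cct8, tcp1), a BAG protein, heat shock factor 1 or 2, STIP1, AHSA1, a prefoldin or the collagen chaperone gene serpinh1, and if it reached 1 RPKM in either table. RPKM is the number of reads on a gene divided by its length and by the size of the library. The name pattern matched 108 of the 27205 listed genes, of which 73 reached 1 RPKM, and these 73 stand among 13341 genes that did so in all. The other 35 stayed below 1 RPKM in both tables. Of the 73 genes, TCP11L1 (2.76 and 5.46 RPKM at 2 and 4 hpf) only begins like tcp1 and belongs to no chaperone family, which leaves 72.

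Chaperones bind unfolded protein and either hold it or help it to fold. Hsp70 works in cycles with J-domain proteins, which bring it substrate and start ATP hydrolysis, and with exchange factors of the Hsp110 and BAG families; Hsp90 takes over late folding steps of kinases and receptors, CCT, supplied by prefoldin, folds actin and tubulin, and small heat shock proteins hold aggregating proteins without ATP. Several families have members that cells make at all times and others that heat shock factor 1 switches on under stress. In zebrafish the egg supplies chaperone mRNA before the embryo's own genome becomes active.

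Per the labels, wild-type embryos of both ages received mRNA for flag-tagged ddx3xb by injection, were lysed at an age of 2 or 4 hours post-fertilization (hpf), and gave up their RNA on anti-FLAG beads, with 2 biological replicates at each age and 4 samples in all. The deposited files hold 1 mean RPKM per gene and age, so that each gene has 1 value at each age, with no SD, n or test behind any difference, and the read depth is unknown. All 4 sample descriptions carry the word control, unexplained, and neither an input nor a mock precipitate was analysed here, so the values are levels in the precipitate and not enrichments. The RNA comes from whole embryos, in which fewer cells of a type and less RNA per cell cannot be told apart.

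In 3 groups of marker genes, put together with earlier results of these data known, levels in the precipitate ran against the age labels. All 12 measured early zygotic genes, such as noto (125 RPKM at 2 hpf and 9.21 RPKM at 4 hpf by the labels), and all 8 measured genes of the enveloping layer, an epithelium on the surface of the blastula, such as krt4 (17.8 and 0.356 RPKM), had lower values in the table labelled 4 hpf. All 10 measured egg genes, such as buc (53.4 and 295 RPKM), had higher ones. Of all tested genes, 27.0% had a lower value at 4 hpf and 73.0% a higher one. Of 10 genes of tissues that such embryos lack, 5 were listed and 1 reached 1 RPKM, at no more than 2.1. Every direction given here rests on the labels of the tables: if they had been exchanged, each would turn, and whether they were was not tested.

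Differences are given as log2(RPKM + 1) in the table labelled 4 hpf minus that in the table labelled 2 hpf, which makes the difference of a low gene look smaller than it is, and a gene is counted at an absolute difference of 1 (2-fold) or more. Of the 73 genes, 30 were 2-fold higher at 4 hpf (41.1%, against 33.0% of all tested genes) and 5 were 2-fold lower (6.85%, against 10.9%). Any higher value was found for 58 (79.5%, against 73.0% of all genes) and any lower value for 15 (20.5%, against 27.0%). The median difference was 0.90, and that of all tested genes was 0.66. These shares lie near the background, so by them the genes as a group are not set apart. The split turned with the scaling. In the deposited values, 85.7% of the genes past 2-fold were the higher ones, against 75.2% over all tested genes. That share was 90.4% when both tables were given the same sum (sum scaling), 50% when they were given the same distribution (quantile scaling), 42.9% when the sum left out the 100 highest genes (trimmed-sum scaling) and 38.5% when the median ratio of well-measured genes was set to 1 (median-ratio scaling). Over all tested genes the share was 84.7%, 39.7%, 25.4% and 12.05% in the same order, so their split turned too. The share of the 73 genes was the higher one in each scaling. Under median-ratio scaling it rests on 5 higher and 8 lower genes, and its distance from that of all genes was not tested. The median of all genes moved with these scalings to 0.99, 0.22, 0.06 and -0.08. Genes are therefore also placed relative to the median of all genes: 10 of the 73 stood 2-fold or more above it (13.7%, against 7.85% of all genes) and 11 stood 2-fold or more below (15.1%, against 21.2%).

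The call depended on level as it did for all genes. Among genes with a mean of both tables of at least 20 RPKM, 15 of 21 chaperone and heat shock genes were 2-fold higher at 4 hpf (71.4%), against 57.8% of all 1828 genes at that level. Between 5 and 20 RPKM, 10 of 24 were 2-fold higher (41.7%), against 49.3% of all genes. Between 2 and 5 RPKM it was 5 of 14 (35.7%, against 29.8%), and below 2 RPKM 0 of 14 (against 8.89%); both lower classes hold few of these genes.

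**Figure D1:**
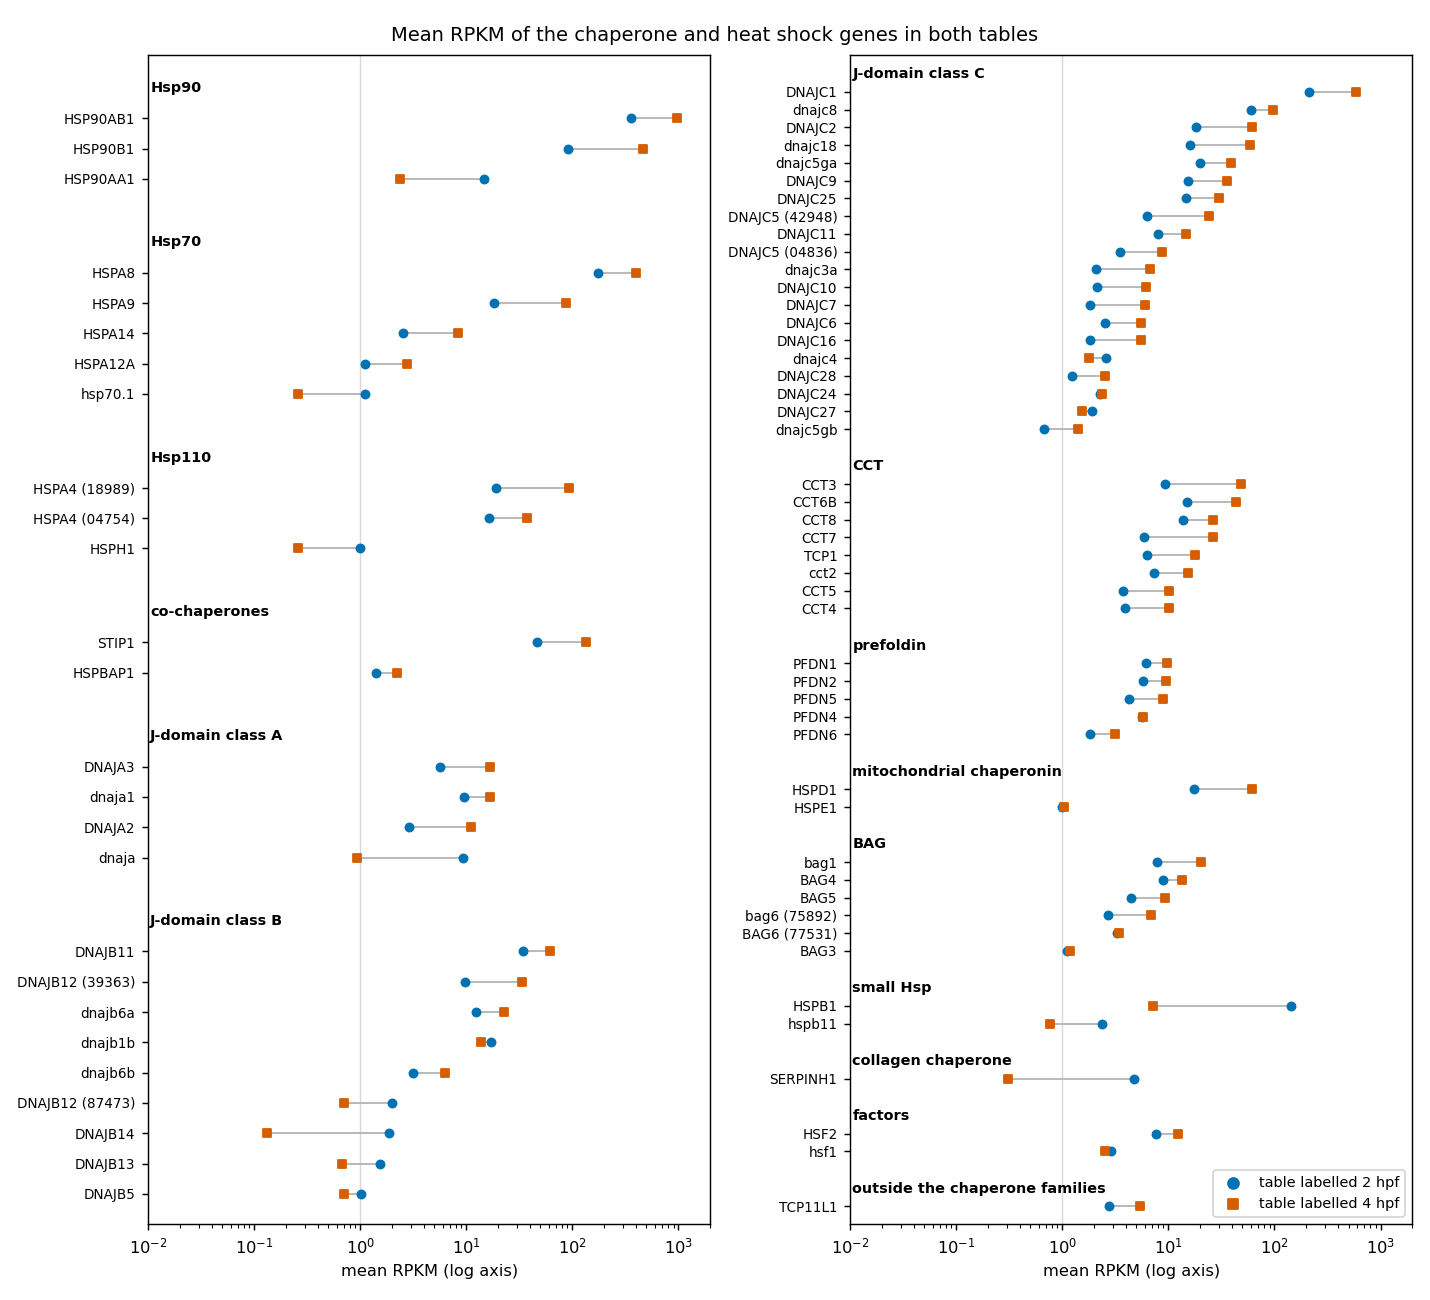
Mean RPKM (log axis) of each of the 73 genes in the table labelled 2 hpf (blue circles) and that labelled 4 hpf (orange squares), by family, with a grey line joining both values of a gene and a thin vertical line at 1 RPKM. Digits in brackets are the end of the Ensembl ID where a symbol occurs on more than 1 gene; HSPB1, SERPINH1, dnaja, HSP90AA1 and DNAJB14 show the widest gaps toward the table labelled 2 hpf.

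The level was concentrated in a few genes. The 5 highest held 63.1% of the summed RPKM of the 73 genes at 2 hpf and 67.8% at 4 hpf. HSP90AB1, DNAJC1, HSPA8 and HSP90B1 were among the 5 at both ages, and the remaining place was taken by HSPB1 at 2 hpf and by STIP1 at 4 hpf. HSP90AB1 alone held 22.9% and 25.7%. By family, Hsp90 held 29.8% of the sum at 2 hpf and 38.1% at 4 hpf, the class C J-domain genes 25.4% and 26.6%, Hsp70 12.8% and 13.1%, and CCT 4.22% and 5.28%. The small heat shock genes went from 9.47% to 0.209%. HSPB1 gave 144 of the 146 RPKM of these 2 genes at 2 hpf and 7.11 of the 7.88 RPKM at 4 hpf. The family shares are of values divided by gene length, not of reads. Multiplying a whole table by a factor leaves them as they are.

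**Figure D2:**
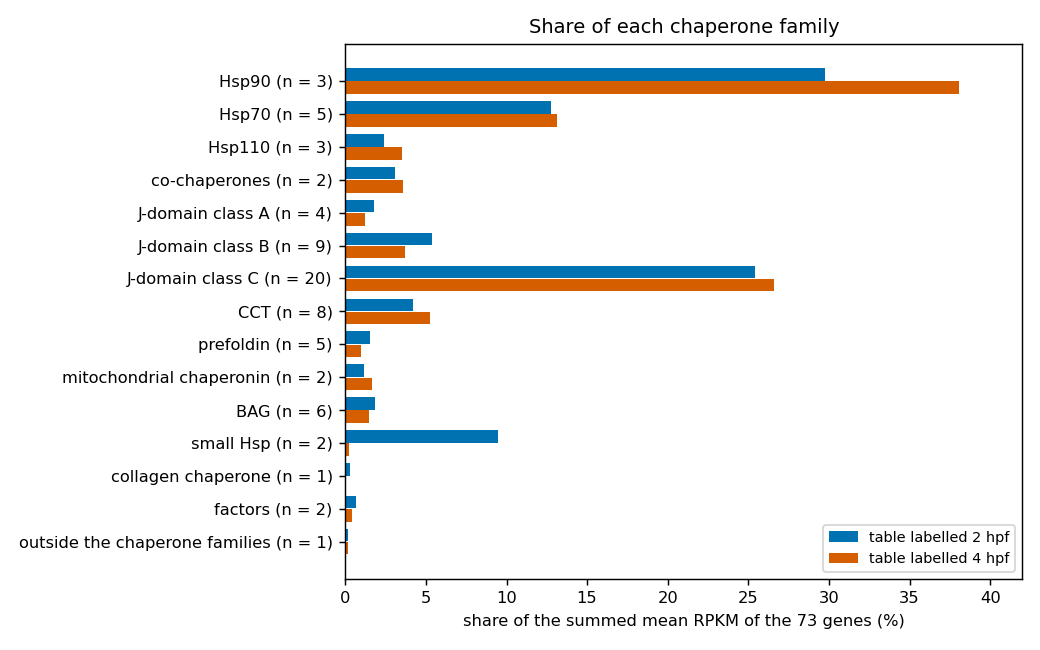
Share (%, horizontal axis from 0) of each family in the summed mean RPKM of the 73 genes, in the table labelled 2 hpf (blue) and that labelled 4 hpf (orange), with the number of genes in brackets. Hsp90 holds the largest share at both ages, and the small heat shock share of 9.47% at 2 hpf, nearly all of it HSPB1, is 0.209% at 4 hpf.

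Hsp90 genes split by paralog. HSP90AB1 (ENSDARG00000029150), the constitutive cytosolic form, stood at 354 RPKM at 2 hpf and 966 RPKM at 4 hpf, above 99.7% and 99.9% of all tested genes. HSP90B1 (ENSDARG00000003570), the form of the endoplasmic reticulum (ER), stood at 91.2 and 465 RPKM, a difference of 2.34 that was the largest of the 73 genes toward 4 hpf in the deposited values. HSP90AA1 (ENSDARG00000024746), the gene of the alpha form, which in vertebrates is stress-inducible, went the other way, at 14.6 and 2.35 RPKM with a difference of -2.22. HSP90AB1 was thus 24.3 times the level of HSP90AA1 in the table labelled 2 hpf and 411 times in that labelled 4 hpf. Multiplying a whole table by a factor leaves such a ratio as it is, while quantile scaling does not. The neighbouring paralog hsp90aa1.1 stayed below the level rule, at 0.876 and 0.356 RPKM. Reads shared by near-identical copies may have been divided between them in the authors' counting.

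Hsp70 genes lay on both sides. HSPA8 (ENSDARG00000068992), the constitutive cytosolic Hsc70 gene, was at 174 RPKM at 2 hpf and 395 RPKM at 4 hpf. HSPA9 (ENSDARG00000003035), whose protein pulls precursors into mitochondria, was at 18.2 and 87.8 RPKM, a difference of 2.21. HSPA14, whose human protein sits on ribosomes together with that of DNAJC2, was at 2.53 and 8.43 RPKM, and HSPA12A, a distant relative, at 1.1 and 2.78 RPKM. The heat-inducible hsp70.1 (ENSDARG00000029688) was near the floor, at 1.12 and 0.257 RPKM. HSPA8 was 156 times the level of hsp70.1 at 2 hpf and 1538 times at 4 hpf. The other inducible copies, hsp70.3 (0.598 and 0.329 RPKM) and hsp70l (0.527 and 0.0145 RPKM), also had lower values at 4 hpf, below the level rule. The gene with the symbol hspa1b (ENSDARG00000056210), which in humans names a heat-inducible Hsp70, was below the rule too, with the higher value at 4 hpf (0.301 and 0.882 RPKM). A second gene with the symbol HSPA8 (ENSDARG00000037403) was at 0.452 and 0.0887 RPKM. The ER Hsp70 gene hspa5 was not analysed here, since no listed ID was paired with that symbol.

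Of the Hsp110 exchange factors, 2 genes carry the symbol HSPA4. The first (ENSDARG00000018989) was at 19.3 and 93.9 RPKM and the second (ENSDARG00000004754) at 16.3 and 37.1 RPKM, differences of 2.23 and 1.14. HSPH1 (ENSDARG00000019874), the heat-inducible member, was at 1.0 and 0.259 RPKM and entered the set by its 2 hpf value alone. Among the co-chaperones, STIP1 (ENSDARG00000004906), which links Hsp70 to Hsp90, was at 46.3 and 133 RPKM. The level of HSP90AB1 was 7.63 times that of STIP1 at 2 hpf and 7.25 times at 4 hpf, so their proportion was nearly the same in the deposited values. HSPBAP1, named for binding HSPB1, was at 1.41 and 2.23 RPKM.

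The J-domain genes formed the most numerous group, with 33 members, of which 13 were 2-fold higher and 2 were 2-fold lower at 4 hpf, near the 33.0% and 10.9% of all tested genes. Class C, the most varied class, had 10 of 20 genes 2-fold higher and none lower, with a median difference of 1.04 (0.14 under median-ratio scaling). DNAJC1 (ENSDARG00000001940), an ER membrane protein gene that holds Hsp70 near ribosomes, was at 212 and 592 RPKM, second only to HSP90AB1 at both ages. dnajc8, named for a protein found with splicing factors, was at 59.9 and 96.5 RPKM. DNAJC2, whose protein binds ribosomes, was at 18.3 and 61.4 RPKM, dnajc18 at 16.2 and 59.3 RPKM, and DNAJC9, known for binding histones, at 15.2 and 35.6 RPKM.

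Of the cysteine string protein genes, which serve vesicle release, 4 reached 1 RPKM. dnajc5ga led at 19.8 and 38.7 RPKM. The genes named DNAJC5 were at 6.27 and 24.0 RPKM (ENSDARG00000042948) and at 3.48 and 8.75 RPKM (ENSDARG00000004836), while dnajc5gb was at 0.672 and 1.40 RPKM. All 4 had the higher value at 4 hpf in the deposited values, as did 73.0% of all tested genes. dnajc5gb reached 1 RPKM in the 4 hpf table alone. A further gene, DNAJC5B, stayed below the level rule and had the lower value at 4 hpf (0.359 and 0.0797 RPKM). The difference of dnajc5ga came to -0.06 under median-ratio scaling and 0 under quantile scaling. The ER genes DNAJC10, a reductase, and dnajc3a, an inhibitor of a translation factor kinase in mammals, were close to each other, at 2.11 and 6.19 RPKM and at 2.1 and 6.74 RPKM. The class C genes with a lower value at 4 hpf were dnajc4 (2.59 and 1.79 RPKM) and DNAJC27 (1.90 and 1.55 RPKM). DNAJC24, which takes part in making diphthamide, was level at 2.25 and 2.38 RPKM.

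Class B, which holds the classical Hsp40 proteins, was divided. Its median difference was -0.24 over 9 genes, or -0.90 relative to the median of all genes. The median difference turned to 0.07 under sum scaling. Relative to the median of all genes, it came to -0.19 with a minimum of 5 RPKM and to -0.19 with no minimum. DNAJB11 (ENSDARG00000015088), an ER co-chaperone, led at 34.3 and 61.2 RPKM. The gene dnajb6a, for a suppressor of aggregation, was at 12.3 and 22.9 RPKM. The heat-inducible dnajb1b (ENSDARG00000041394) was at 17.1 and 13.6 RPKM. The pair named DNAJB12, an ER membrane protein, pointed in opposite directions, at 9.68 and 33.7 RPKM (ENSDARG00000039363) and at 1.99 and 0.707 RPKM (ENSDARG00000087473). DNAJB14 (ENSDARG00000069996), a relative of DNAJB12, was at 1.88 and 0.133 RPKM, and DNAJB13, known from cilia and sperm tails, at 1.53 and 0.674 RPKM. The 4 lowest genes, these 2, the second DNAJB12 and DNAJB5 (1.02 and 0.711 RPKM), all passed the level rule through the 2 hpf table alone, so their direction follows in part from the rule.

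In class A, whose proteins are nearest to bacterial DnaJ, 3 genes were higher at 4 hpf. DNAJA3, a mitochondrial protein gene, was at 5.66 and 16.9 RPKM, the cytosolic dnaja1 at 9.46 and 16.9 RPKM, and DNAJA2 at 2.91 and 11.1 RPKM. The gene named dnaja (ENSDARG00000051762) was the exception, at 9.25 and 0.942 RPKM. Its level at 2 hpf was close to that of dnaja1, and its difference of -2.40 was the second largest toward 2 hpf.

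**Figure D3:**
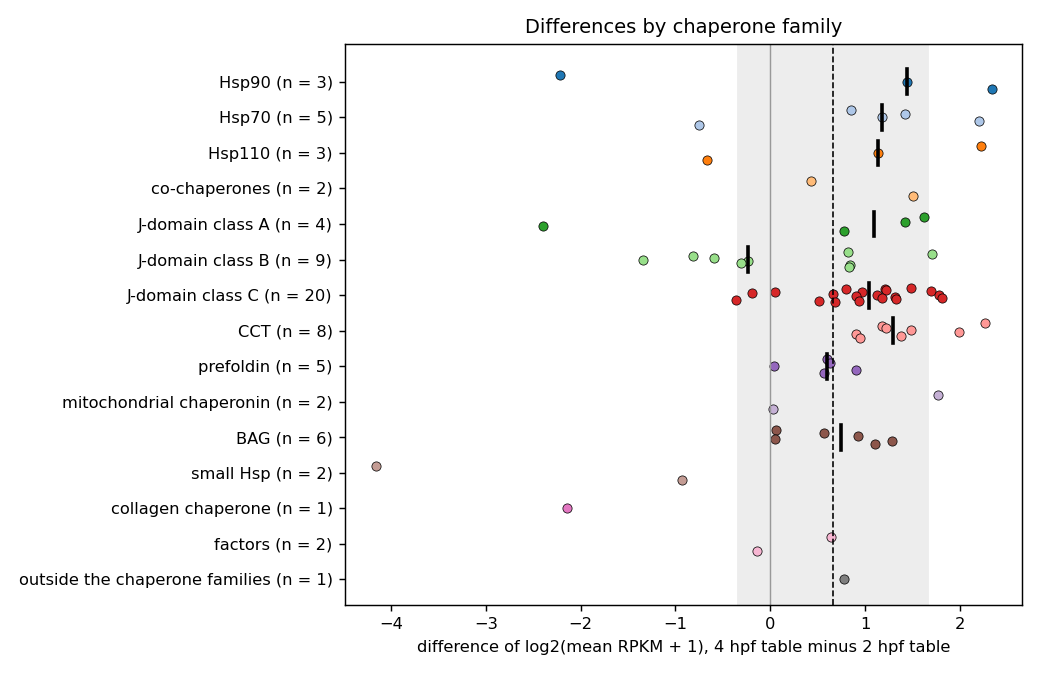
Difference of log2(mean RPKM + 1), 4 hpf table minus 2 hpf table, for each gene by family. Black bars are medians of families with 3 or more genes, the dashed line is the median of all tested genes (0.66), and the grey band spans 2-fold to either side of it. All 8 CCT genes lie right of the dashed line in the deposited values, while class B and both small heat shock genes reach far to the left. Of these, hspb11 and the lowest class B genes passed the level rule through the 2 hpf table alone.

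The CCT genes all lay on one side in the deposited values. All 8 subunit genes had the higher value at 4 hpf, as did 73.0% of all tested genes. Of the 8, 6 were 2-fold higher, against 33.0% of all tested genes. That share was 49.3% for all genes with a mean of 5 to 20 RPKM and 57.8% at 20 RPKM or more. The median difference of the 8 was 1.30. The sign of CCT8 turned to -0.07 under median-ratio scaling and -0.010 under quantile scaling. The sign of the family's median held under all 5 scalings, with its lowest median at 0.37 under median-ratio scaling. Levels ran from 3.75 (CCT5) to 14.9 RPKM (CCT6B) at 2 hpf and from 10.1 (CCT4) to 48.7 RPKM (CCT3) at 4 hpf, a span of 3.96 and 4.84 times for subunits that stand in equal number in the ring. CCT3 (ENSDARG00000016173) had 9.30 and 48.7 RPKM, a difference of 2.27, and CCT7 (ENSDARG00000007385) 5.94 and 26.5 RPKM, a difference of 1.99. Both stood 2-fold or more above the median of all genes, CCT7 not under quantile scaling, where it was 0.96 above. At the other end, CCT8 had 13.7 and 26.6 RPKM and cct2 7.40 and 15.3 RPKM.

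Prefoldin, which hands nascent actin and tubulin to CCT, differed less. None of its 5 genes was 2-fold apart, as held for 7480 of all 13341 tested genes. The median difference of prefoldin was 0.60, or -0.06 relative to the median of all genes. That family median turned to -0.26 under median-ratio scaling, -0.08 under quantile scaling and -0.09 under trimmed-sum scaling. PFDN1, PFDN2 and PFDN5 had 6.13, 5.81 and 4.25 RPKM at 2 hpf and 9.81, 9.57 and 8.81 RPKM at 4 hpf. PFDN4 was level at 5.63 and 5.81 RPKM, and PFDN6 lowest at 1.82 and 3.16 RPKM. The remaining subunit, VBP1, which the name pattern does not take in, was the most abundant at 13.4 and 21.6 RPKM.

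The mitochondrial chaperonin genes differed widely in level. HSPD1 (ENSDARG00000056160), the Hsp60 barrel, was at 17.3 and 61.3 RPKM, and HSPE1 (ENSDARG00000056167), its Hsp10 lid, at 0.998 and 1.04 RPKM. These genes are direct neighbours in the RefSeq order of the zebrafish genome. HSPD1 was 17.3 times the level of HSPE1 at 2 hpf and 59.0 times at 4 hpf. HSPE1 was near the floor at both ages and reached 1 RPKM in the 4 hpf table alone.

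BAG genes, which release substrate from Hsp70, lay near the median of all genes. bag1 was at 7.80 and 20.4 RPKM, BAG4 at 8.81 and 13.5 RPKM and BAG5 at 4.44 and 9.35 RPKM. The genes named BAG6, for a protein that guards new membrane proteins, were at 3.26 and 3.41 RPKM (ENSDARG00000077531) and at 2.68 and 6.90 RPKM (ENSDARG00000075892). BAG3, a stress-inducible partner of small heat shock proteins, was level at 1.1 and 1.19 RPKM. Of 6 genes, 2 were 2-fold higher and none lower, against 33.0% and 10.9% of all tested genes. The median difference of the 6 BAG genes was 0.74, and -0.17 under median-ratio scaling.

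Small heat shock genes were mostly near the floor. Of 9 with a matching symbol, 2 reached 1 RPKM. HSPB1 (ENSDARG00000041065), the Hsp27 gene, was at 144 RPKM at 2 hpf and 7.11 RPKM at 4 hpf, so that its level at 2 hpf was 20.2 times that at 4 hpf. It stood above 99.3% of all tested genes at 2 hpf and above 60.6% at 4 hpf. No other of the 73 genes had as large a difference. hspb11, whose human namesake serves transport in cilia, was at 2.37 and 0.769 RPKM. It reached 1 RPKM in the 2 hpf table alone, so its direction follows in part from the level rule. HSPB8, hspb6, HSPB3, HSPB2, hspb9, hspb9l and hspb15 had no value above 0.562 RPKM. Of these, hspb6, hspb9l and hspb15 had the higher value at 4 hpf, and HSPB8, HSPB3, HSPB2 and hspb9 the lower one.

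The collagen chaperone gene SERPINH1 (ENSDARG00000019949), which acts in the ER, was at 4.79 and 0.309 RPKM, a difference of -2.14. A second gene of that symbol (ENSDARG00000075954) was at 0.274 and 0.0688 RPKM. The regulators themselves differed little. hsf1, the main activator of the heat shock response, was at 2.88 and 2.52 RPKM, and HSF2, a relative with roles in germ cells and development, at 7.59 and 12.4 RPKM. HSF2 was 2.64 times the level of hsf1 at 2 hpf and 4.91 times at 4 hpf.

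Genes known as heat-inducible in vertebrates did not all lie on one side. In the deposited values, HSPB1, HSP90AA1, SERPINH1, HSPH1, hsp70.1 and dnajb1b had lower values at 4 hpf, while HSPD1, HSPE1, dnaja1 and BAG3 had higher ones. SERPINH1, HSPH1 and hsp70.1 reached 1 RPKM in the 2 hpf table alone, and HSPE1 in the 4 hpf table alone. Below the level rule, hsp70.3, hsp70l, hsp90aa1.1, HSPB8 and DNAJB4 also had lower values at 4 hpf, and hspa1b a higher one. A lower value was found for 27.0% of all tested genes and 45.6% of all listed genes. The sign turned for dnajb1b under sum scaling, for HSPE1 and BAG3 under median-ratio and trimmed-sum scaling, and for dnaja1 under median-ratio and quantile scaling. A group of 13 genes, taken as constitutive cytosolic and put together with the values known, held HSPA8, HSP90AB1, both HSPA4 genes, STIP1 and the CCT subunits. STIP1, named as a stress-induced phosphoprotein, could also be placed with the heat-inducible genes. The group left out other genes that could be placed in it. Among them were the 5 prefoldin genes, with differences of 0.04 to 0.90, none of them 2-fold. DNAJA2, DNAJC7, HSPA14 and bag1, also left out, had differences of 1.63, 1.32, 1.42 and 1.28. In the deposited values all 13 had the higher value at 4 hpf, as did 73.0% of all tested genes. Of the 13, 11 were 2-fold higher, as were 33.0% of all tested genes and 57.8% of those at 20 RPKM or more. Their median difference of 1.38 came to 0.42 under median-ratio scaling, and the turn of CCT8 given above applies here too. The zygotic and enveloping layer genes lay on the side of HSPB1 and HSP90AA1 and the egg genes on the side of the constitutive genes, and their part in these differences was not tested. Of 3 measured heat-induced genes that encode no chaperone, none was 2-fold apart. UBB, a polyubiquitin gene, was at 6.12 and 12.6 RPKM, a second gene with the symbol ubb (ENSDARG00000093313) at 1.97 and 1.2 RPKM, and ATF3, a stress transcription factor gene, at 6.39 and 6.73 RPKM.

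By compartment, 3 of 5 mitochondrial genes and 4 of 6 ER genes that reached 1 RPKM were 2-fold higher at 4 hpf. SERPINH1 was the 1 gene of these 6 ER genes that was 2-fold lower. Both groups were put together with earlier results known, and the ER group left out the DNAJB12 genes and DNAJB14. Of those, 1 DNAJB12 gene (ENSDARG00000039363) was 2-fold higher, with a difference of 1.70, and DNAJB14 was 2-fold lower, at -1.35. The other DNAJB12 gene was at -0.81. Left out of the mitochondrial group were dnajc4 and DNAJC28, whose mammalian proteins have been placed in mitochondria. Their differences were -0.36 and 0.66. For these groups and the lists that follow, the share of all tested genes 2-fold higher was 33.0%, and 57.8% at 20 RPKM or more. The share 2-fold lower was 10.9%, and 4.65% at 20 RPKM or more. Beside the ER members stood a wider list of ER chaperones, folding enzymes and ER stress genes. Of 21 measured, 12 were 2-fold higher at 4 hpf and 3 were 2-fold lower. Set against the median of all genes, 7 stood 2-fold above it (against 7.85% of all genes) and 3 stood 2-fold below (against 21.2%). The 3 lower genes were FKBP7 (4.85 and 0.296 RPKM), atf4b (4.00 and 0.407 RPKM) and DDIT3 (4.83 and 0.655 RPKM). HYOU1, an ER exchange factor of the Hsp110 kind, was at 146 and 615 RPKM, PPIB, an ER prolyl isomerase, at 213 and 619 RPKM, and PDIA4, a disulfide isomerase, at 18.1 and 84.3 RPKM. CRELD2, an ER stress gene, was at 2.25 and 13.2 RPKM. Of 12 measured Hsp90 co-chaperone genes outside the name pattern, 6 were 2-fold higher and none lower. Set against the median of all genes, 0 of the 12 stood 2-fold above it (against 7.85% of all genes). 2-fold below it stood 1 (against 21.2%). FKBP4, an immunophilin, was at 35.6 and 99.9 RPKM and rpap3, an assembly factor, at 7.46 and 22.5 RPKM.

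**Figure D4:**
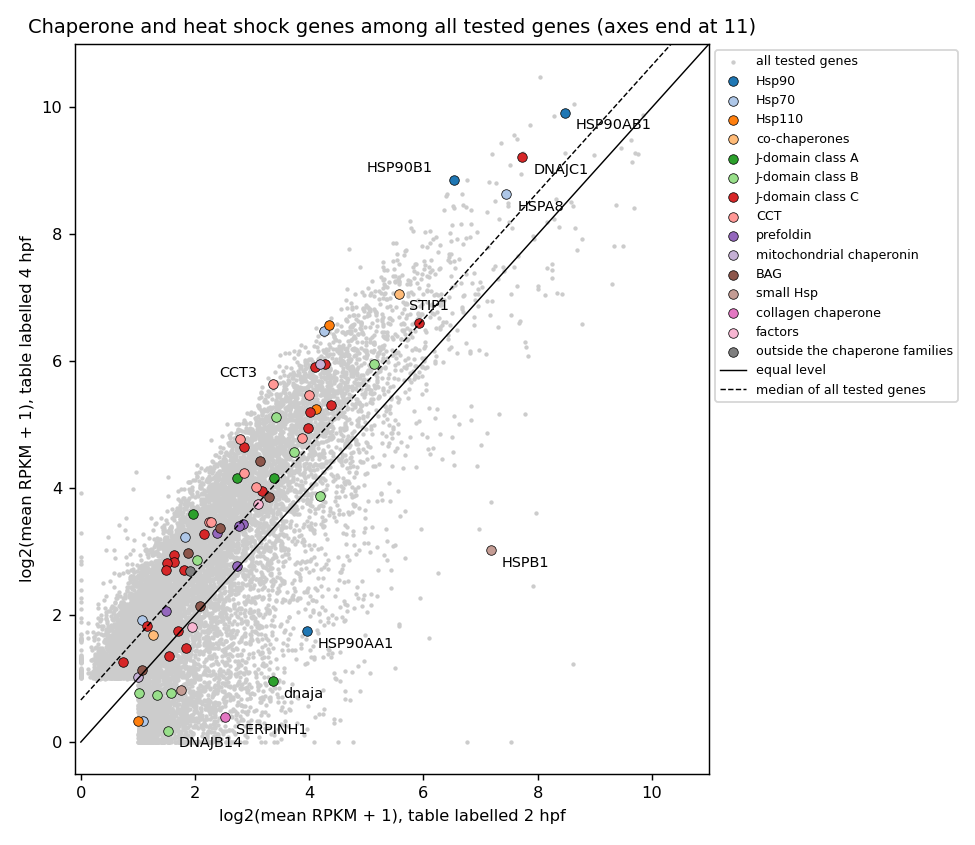
log2(mean RPKM + 1) at 2 hpf (horizontal) and 4 hpf (vertical) for all 13341 tested genes (grey) and the 73 chaperone and heat shock genes, coloured by family; the solid line marks equal level and the dashed line the median difference of 0.66. HSPB1, HSP90AA1, dnaja, SERPINH1 and DNAJB14 lie far below both lines, while HSP90AB1, DNAJC1, HSP90B1 and HSPA8 lie at the top right; a few grey points lie beyond the axes.

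Some of the 73 genes were 2-fold apart in the same direction as deposited and under all 4 other scalings. HSP90B1, CCT3, HSPA4 (ENSDARG00000018989), HSPA9 and CCT7 were 2-fold higher at 4 hpf in each, and HSPB1, dnaja, HSP90AA1, SERPINH1 and DNAJB14 were 2-fold lower. Their smallest differences over the scalings were 1.31 for HSP90B1, 1.27 for CCT3, 1.21 for HSPA4, 1.19 for HSPA9 and 1.01 for CCT7. On the other side they were -3.79 for HSPB1, -2.19 for dnaja, -1.92 for HSP90AA1, -2.04 for SERPINH1 and -1.29 for DNAJB14. The genes dnaja, SERPINH1 and DNAJB14 reached 1 RPKM in the 2 hpf table alone, so their direction follows in part from the level rule. With a pseudocount of 5 in place of 1, SERPINH1 was at -0.88 and DNAJB14 at -0.42, short of 2-fold. Of all 73 genes, 37 had the higher value at 4 hpf under every one of the 5 scalings and 12 the lower value, while for 24 the sign depended on the scaling. No shares of all tested genes are given for these counts or for the genes 2-fold apart in each scaling. Without such shares, neither can show whether the group is set apart.

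**Figure D5:**
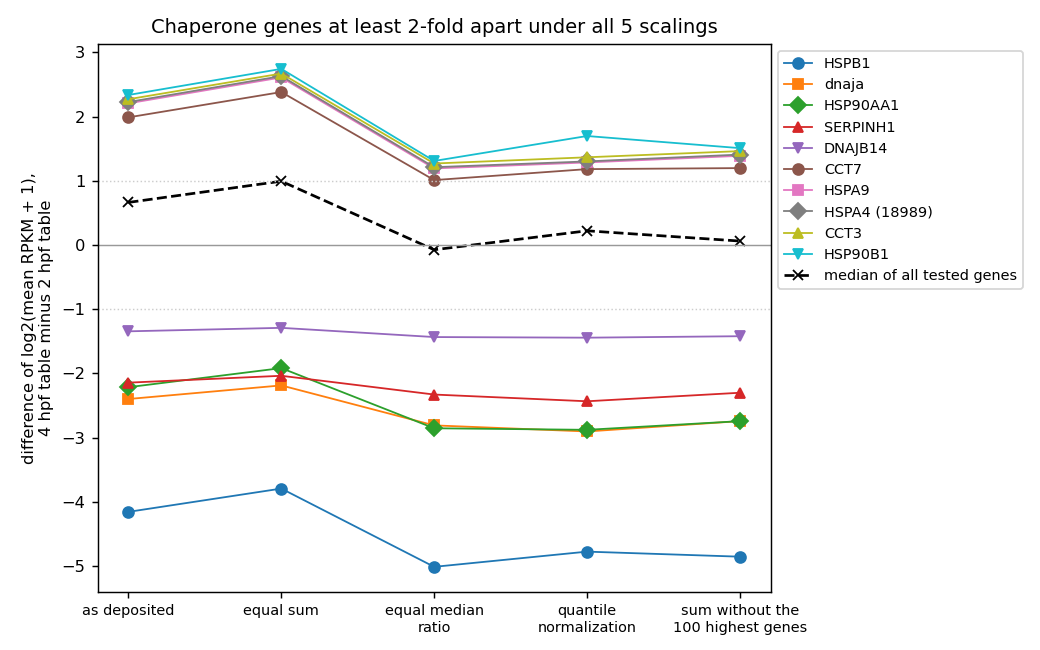
Difference of log2(mean RPKM + 1), 4 hpf table minus 2 hpf table, as deposited and under 4 other scalings, for the 10 genes at least 2-fold apart in each (coloured) and the median of all tested genes (dashed). Dotted lines mark 2-fold; the lines join the values of a gene and carry no order. The 5 upper genes stay above 1 and the 5 lower genes below -1, while the median of all genes runs from -0.08 to 0.99.

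The rule's threshold cut through a run of low genes. Just inside it lay HSPH1 with a higher value of 1.0 RPKM and DNAJB5 with 1.02 RPKM. Just outside it lay dnajc3b, with 0.991 RPKM at 4 hpf, and dnajb2, with 0.960 RPKM at 4 hpf.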

How the data were processed

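The deposited values are mean RPKM per gene, made by the authors, in 1 headerless table for each age. Of the values with over 6 significant digits, 93.3% at 2 hpf and 93.5% at 4 hpf ended in 5. Per the submitters' processing notes, the tools were bedtools 2.16.2, MACS2 2.0.10, TopHat2 2.1.1, Bowtie, Trimmomatic 0.36 and cutadapt 1.13, and the build Zv9. The counting, its annotation and its read total were not given in the sources used here. A gene absent from 1 table was set to 0; each of the 73 genes is in both. Symbols came from a table of Ensembl IDs that named 20039 of 27205 genes (73.7%). No sequences were used here.

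Differences of log2(RPKM + 1) were computed over every gene that reached 1 RPKM (python 3.11.15, pandas 2.3.3), with code tested on simulated data. With 1 mean per age, no limma or other test was run. Any of the 73 genes could be named, full values going first to those that reached 10 RPKM or stood 2-fold off the median of all genes. Other lists were represented by up to 2 genes of the highest level and up to 2 of the widest difference among those that reached 5 RPKM, context lists by 1 example, and VBP1 was named as the remaining prefoldin subunit. The ER list genes 2-fold lower at 4 hpf and the second ubb and clpb genes were named as well. The rule, the members, the lists and the role groups were chosen with earlier results of these data known. Alternatives concerned the pseudocount, the filter, the scaling, genes in both tables, a 4-fold threshold and older symbols.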

Additional observations from a re-analysis of the deposited data

How the results depend on the processing

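No paired analysis was possible because the replicates are merged into 1 value per age, which also prevents leaving one out; heat shock elements in promoters were not counted, since no promoter sequence was used here. What limits every value is that replicate spread, depth and a mock precipitate are all missing from what was analysed. A count was taken as moved beyond 1.5 times and a difference beyond 0.3, tolerances chosen here. Against 30 higher and 5 lower of 73 genes, a pseudocount of 0.1 gave 10 lower. A pseudocount of 5 gave 19 higher and 3 lower. A minimum of 5 RPKM gave 3 lower of 53 genes. Sum scaling gave 47 higher, median-ratio scaling 5 higher and 8 lower, and quantile scaling 7 higher. Trimmed-sum scaling gave 6 higher and 8 lower, and a threshold of 4-fold 4 higher. The higher ones made up 78.3% of the genes past 2-fold with a pseudocount of 0.1, against 73.9% over all tested genes. That share was 86.4% with a pseudocount of 5 (against 83.7%) and 90.9% with a minimum of 5 RPKM (against 85.5%). Past 4-fold it was 50% (against 46.0%). Against 10 genes above and 11 below the median of all genes, a pseudocount of 5 gave 4 below, no minimum gave 30 above and 5 below, a minimum of 5 RPKM gave 4 above and 4 below, median-ratio scaling 5 above, quantile scaling 4 above, trimmed-sum scaling 5 above, and a threshold of 4-fold gave 0 above and 5 below. The median difference of 0.90 became 0.44 over 108 genes with no minimum, 1.26 under sum scaling, 0.0035 under median-ratio scaling, 0.25 under quantile scaling and 0.14 under trimmed-sum scaling. Beyond the changed scale, minimum or threshold, the cause was not tested. Older symbols added 3 genes (76 in all), whose synonyms only begin alike. The 46 genes that reached 10 RPKM or stood 2-fold off the median of all genes gave 406 alternative values, of which 185 moved. Of these genes, none with a 2-fold difference changed sign, while some with smaller differences did, such as CCT8 and dnajb1b. Relative to the median of all genes, the CCT, Hsp90 and J-domain class A and C medians stayed above 0 in all alternatives. The class B median stayed below 0 but shrank from -0.90 to -0.19 with a minimum of 5 RPKM. Its lowest genes had passed the level rule through the 2 hpf table alone. The BAG, Hsp110, Hsp70 and prefoldin medians changed sign in 1 or more alternatives.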

Other observations

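Other quality-control genes outside the name pattern had a median close to that of all genes. Of these genes, 2 stood 2-fold or more above the median of all genes (against 7.85% of all genes) and 2 stood 2-fold or more below (against 21.2%). The list of 21 measured genes took in protease, disaggregase, nascent-chain and tubulin-folding factors, and also others such as ST13, SQSTM1 and the apoptosis gene bbc3. Of the 21, 5 were 2-fold higher at 4 hpf and none lower. Of all tested genes, 33.0% were 2-fold higher and 10.9% lower. The median difference of the 21 was 0.64, against 0.66 for all genes. VCP, an ATPase that extracts ubiquitinated protein, was at 13.6 RPKM at 2 hpf and 50.0 RPKM at 4 hpf. The symbol CLPB, of a mitochondrial disaggregase gene, stood on more than 1 gene. One (ENSDARG00000088463) was at 0.744 and 5.48 RPKM and reached 1 RPKM in the 4 hpf table alone. The other (ENSDARG00000090232) was at 8.23 and 25.4 RPKM. BTF3, a nascent-chain factor gene, was at 18.1 and 29.5 RPKM.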
